A study of Mus musculus with 12 samples.

Results

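RNA levels of the ligands and receptors of platelet-derived growth factor (PDGF) and vascular endothelial growth factor (VEGF) were followed in macrophages and in fibroblasts kept in macrophage medium. The genes were taken by symbol from the count table: Pdgfa, Pdgfb, Pdgfc, Pdgfra, Pdgfrb, Vegfa, Vegfb, Vegfc, Flt1 and Nrp1, which are 10 of its 32544 genes. All 10 passed the filter on low counts, with 14285 genes tested in total. The 12 libraries of polyA RNA fall into 4 groups of 3. Bone marrow-derived macrophages (BMDMs) came from LysMCre mice (WT) or from LysMCre mice with a conditional deletion of Egln1, the gene of the oxygen sensor PHD2 (PHD2cko). The other libraries came from NIH/3T3, a mouse embryonic fibroblast line, kept in medium conditioned by WT or by PHD2cko BMDMs. Both genotypes thus carry Cre under the lysozyme M promoter, which is active in macrophages and other myeloid cells, and both have a C57Bl6/J background. BMDMs were grown with 15% L929-conditioned medium and 10% serum, and their RNA was taken 24 h after seeding. The fibroblasts were starved for 48 h in 0.1% serum and then spent 72 h in medium with 2% serum and 15% L929-conditioned medium. Ages were not given, and neither was whether the medium of the sequenced cells was made in normal oxygen or in hypoxia. The libraries of a group are triplicates, but it is not stated that they are separate cultures or animals, so p-values may measure technical spread.

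PDGF chains pair into dimers. PDGFRα binds the A, B and C chains, and PDGFRβ binds mainly the B and D chains. Both receptors mark mesenchymal cells, for which macrophages and platelets are known sources of PDGF-B. VEGF-A acts through VEGFR1 (Flt1) and VEGFR2 (Kdr), VEGF-B and placental growth factor bind Flt1, VEGF-C and VEGF-D act through VEGFR3 (Flt4), VEGF-C also through VEGFR2, and the neuropilins Nrp1 and Nrp2 are co-receptors that also bind semaphorins of class 3. PHD2 hydroxylates the α subunits of hypoxia-inducible factor (HIF) and so marks them for degradation, and Vegfa is a textbook HIF target.

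Pdgfc and Flt1 were the members that fell with the PHD2cko label in both cell types, and Kdr, the other main VEGF-A receptor, fell in macrophages. Their promoters are shown for this reason, as the 250 bases before the annotated start in RefSeq, build GRCm38.p6. Capitals mark the letters ACGTG, the core of the motif that HIF binds, or its variant, the letters GCGTG, on either strand. Matches can overlap, as where the letters read alike on both strands, and each start was counted.
Flt1 (chr5:147726012-147726261, minus strand): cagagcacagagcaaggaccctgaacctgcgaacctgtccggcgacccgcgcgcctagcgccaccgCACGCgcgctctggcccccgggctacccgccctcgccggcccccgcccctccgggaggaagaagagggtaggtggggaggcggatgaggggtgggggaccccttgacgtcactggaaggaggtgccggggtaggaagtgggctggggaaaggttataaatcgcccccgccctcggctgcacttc
Pdgfc (chr3:81036166-81036415, plus strand): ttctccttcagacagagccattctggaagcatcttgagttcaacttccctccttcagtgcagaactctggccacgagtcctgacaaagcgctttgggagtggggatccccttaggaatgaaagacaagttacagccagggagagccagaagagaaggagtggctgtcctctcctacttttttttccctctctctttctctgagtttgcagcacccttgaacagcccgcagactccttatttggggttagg
Kdr (chr5:75978456-75978705, minus strand): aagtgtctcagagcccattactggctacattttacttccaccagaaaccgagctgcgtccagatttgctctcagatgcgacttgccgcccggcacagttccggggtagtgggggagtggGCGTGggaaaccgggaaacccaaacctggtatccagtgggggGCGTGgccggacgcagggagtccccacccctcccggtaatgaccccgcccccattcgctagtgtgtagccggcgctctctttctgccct
The Flt1 window held 1 match, that of Pdgfc 0 and that of Kdr 2. Promoters were read for 8 of the 10 members, at 10 start sites, of which 5 had a match. Among all 32851 promoters of the same length, 38.6% had one. A match is no evidence of binding.

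Total counts per library ran from 15516465 to 25199770. Levels are given as counts scaled to an effective library size of 1e6 (CPM), so that 3 counts correspond to between 0.109 and 0.205 CPM. Egln1, the targeted gene, measured 55.8, 54.7 and 55.5 CPM in the BMDM libraries labelled WT and 68.8, 68.3 and 71.6 CPM in those labelled PHD2cko. It was thus 1.26-fold higher in the libraries labelled as the knockout (log2 fold change 0.33, adjusted p = 0.00203 by edgeR), and no exon-level values were used that could show the deleted part. The label PHD2cko is therefore used for libraries and media as given. Sums over marker lists are given per 1e6 total counts instead. All 23 macrophage markers had counts in both BMDM groups, where the 12 fibroblast markers summed to between 7.92 and 15.6 CPM. In 3T3 the fibroblast markers summed to 30700 to 39200 CPM. Replicate 1 of 3T3 in WT medium differed from replicates 2 and 3 more than these did from each other (χ2 per degree of freedom 25.1 and 27.0 against 2.35).

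WT BMDMs had Pdgfb and almost no PDGF receptor RNA, while 3T3 in WT medium had both receptors and almost no Pdgfb. Pdgfc was higher in 3T3, and Pdgfa was closer between the cells. In this comparison 3 of the 10 members were higher in BMDMs, where 40.4% of all genes tested were, and 6 were lower, where 44.9% of all genes were. It shares its WT libraries with the comparisons of the label, and cell type cannot be told apart from culture medium and time in it.

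**Figure D1:**
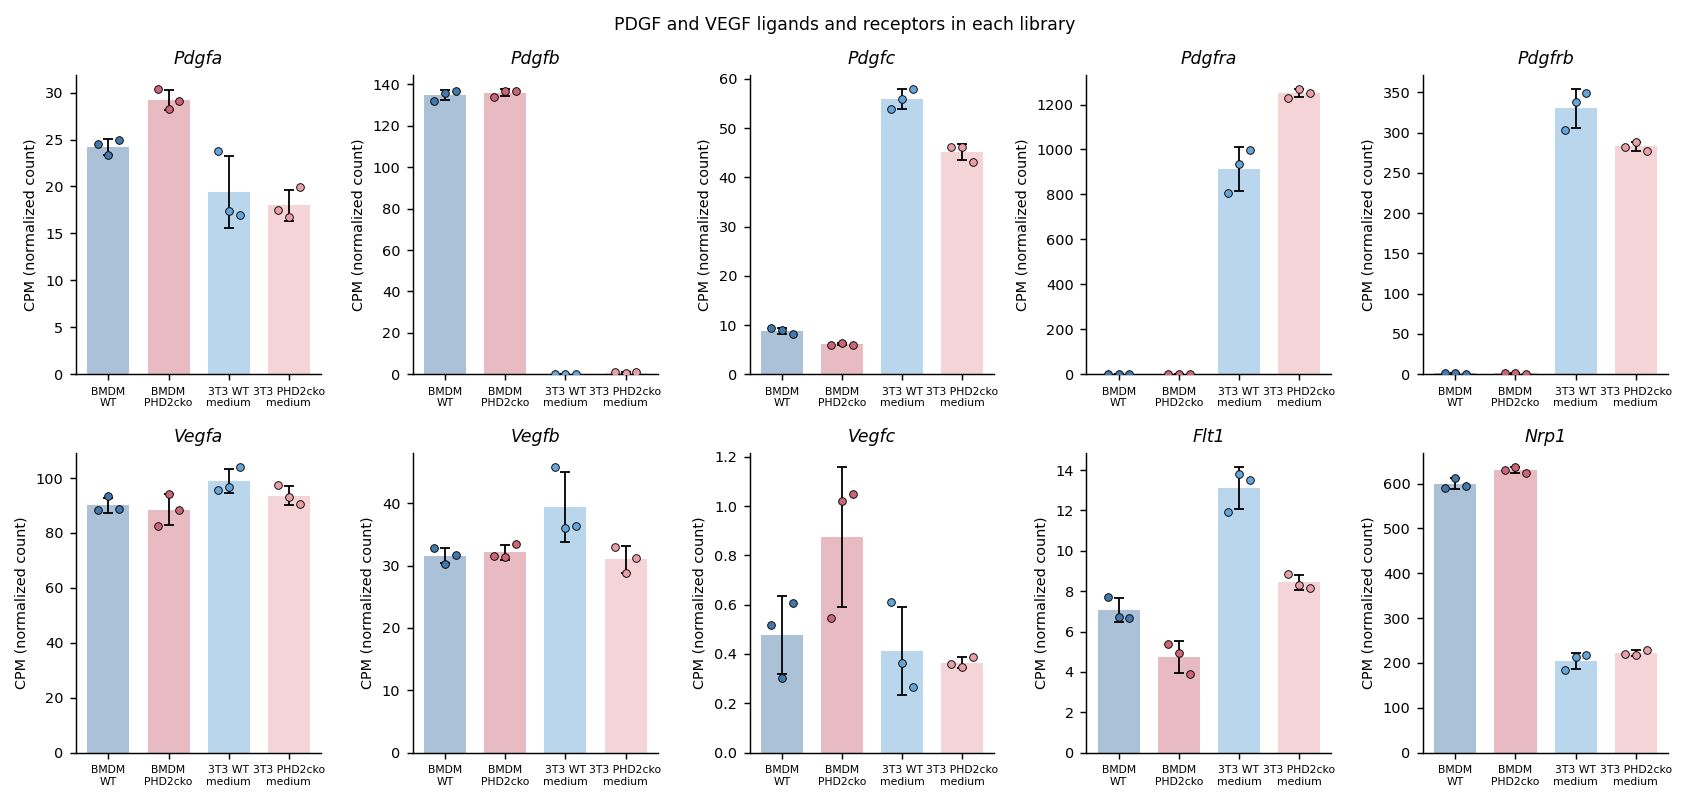
Normalized count (CPM, linear axes from 0, a separate axis for each gene) of the 10 genes in each of the 4 groups, with points for the 3 libraries, bars for their mean and error bars for their SD. Pdgfb stands at 132 to 137 CPM in BMDMs and Pdgfra at 805 to 1270 CPM in 3T3, and each is close to 0 in the other cell type.

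Pdgfb (chr15:79995874-80014977, minus strand, GRCm38) encodes the chain that binds both PDGF receptors. It measured 132, 136 and 137 CPM in WT BMDMs, and 2034 to 2245 reads were counted in each library. In 3T3 in WT medium it had 0, 0 and 2 counts. The summed counts give a ratio of 4461, with an exact 95% interval of 1234 to 36844 that covers counting error only. Pdgfra (chr5:75152292-75198215, plus strand) was the reverse, at 805, 937 and 996 CPM in 3T3 in WT medium against 2, 5 and 2 counts in WT BMDMs. Its ratio of 3T3 to BMDM was 4913, with an exact interval of 2588 to 10745. Pdgfrb, a marker of mural and other mesenchymal cells, measured 303, 338 and 349 CPM in 3T3 and 1.43, 1.45 and 0.669 CPM in BMDMs. Its log2 difference, BMDM minus 3T3, was -8.12 ± 0.133 (SE), with adjusted p = 7.79e-15 by edgeR.

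Pdgfc (chr3:81036416-81214040, plus strand), whose product is secreted latent and cleaved by proteases such as tPA, stood at 8.09 to 9.35 CPM in WT BMDMs and at 53.8 to 57.9 CPM in 3T3. It was thus 6.34-fold lower in BMDMs (adjusted p = 1.84e-13 by edgeR). Pdgfa (chr5:138976014-138997370, minus strand) was closer between the cells, at 24.5, 23.3 and 24.9 CPM in BMDMs and 23.8, 17.4 and 17.0 CPM in 3T3. The groups overlapped through replicate 1 of 3T3, and the log2 difference of 0.33 passed the threshold (adjusted p = 0.0157 by edgeR) but not without replicate 2 or 3 of 3T3 in WT medium (adjusted p = 0.0775 and 0.0655). The antisense genes 6330403L08Rik at Pdgfa, Gm16000 at Pdgfc and Gm42802 and Gm42803 at Pdgfra share exon positions with them, and reads from such pairs can be told apart only with strand, whose use is not given in the sources used here.

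Of the VEGF ligands, Vegfa (chr17:46016993-46032369, minus strand) was nearly even between the cell types, with 88.2, 93.3 and 88.8 CPM in WT BMDMs and 95.8, 96.7 and 104 CPM in 3T3. The libraries did not overlap, and the log2 difference of -0.13 passed the threshold narrowly (adjusted p = 0.0387 by edgeR). The call was lost without BMDM WT replicate 1 or 3 or 3T3 WT medium replicate 3 (adjusted p between 0.106 and 0.135), and with the macrophage RNA in 3T3 libraries, described with the fibroblasts, subtracted (-0.10, adjusted p = 0.0936, or -0.12, adjusted p = 0.0530, by the set of markers). Vegfb (chr19:6982473-6987651, minus strand), a ligand of Flt1 alone among the VEGF receptors, was also lower in BMDMs, at 30.3 to 32.8 CPM against 36.1 to 45.8 CPM (log2 difference -0.32, adjusted p = 0.00462 by edgeR). Vegfc (chr8:54077606-54187096, plus strand), a lymphatic growth factor, had 5 to 10 counts in a BMDM WT library and 5 to 12 in a 3T3 library in WT medium, with a log2 difference of 0.21 (95% interval -0.68 to 1.10).

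Nrp1 (chr8:128358604-128503363, plus strand) encodes a co-receptor of VEGF-A and a receptor of semaphorins. It measured 590, 613 and 595 CPM there and 183, 212 and 218 CPM in 3T3 in WT medium, and was 2.93-fold higher in BMDMs (adjusted p = 4.22e-11 by edgeR). Flt1 (chr5:147561604-147726011, minus strand) stood at 6.69 to 7.73 CPM in BMDMs and 11.9 to 13.8 CPM in 3T3, and was 1.86-fold lower in BMDMs (adjusted p = 5.73e-06 by edgeR). The other genes of these families divided likewise. Kdr and Nrp2 were higher in BMDMs, Kdr with 270 to 289 counts in a library against 0, 2 and 2 in 3T3, and Nrp2 at 494 to 524 against 117 to 140 CPM. Pgf, placental growth factor, was 2.26-fold higher in BMDMs at low counts, 16 to 32 in a BMDM library (adjusted p = 0.00686 by edgeR). Figf, the older symbol of Vegfd, was at 207 to 221 CPM in 3T3 with 6 to 9 counts in a BMDM library, and the PDGF receptor-like gene Pdgfrl at 29.6 to 32.3 CPM with 0 to 3. Pdgfd and Flt4 had at most 4 counts in any of the 12 libraries and were not tested.

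Compared per kilobase of the median annotated coding transcript, the order of the genes differed between the cells. In WT BMDMs Pdgfb led at 207 ± 3.72 CPM per kb (SD, n = 3), ahead of Nrp1 at 167 ± 3.41, and these did not overlap. Vegfa at 78.8 ± 2.46 and Nrp2 at 78.6 ± 2.40 could not be separated, Vegfb followed at 25.9 and Pdgfa at 16.7, and the 4 lowest members were Flt1, Vegfc, Pdgfrb and Pdgfra, at 1.07 to 0.0642. In 3T3 in WT medium Pdgfra led at 317 ± 34.1 CPM per kb, ahead of Figf at 104, Vegfa at 86.4 ± 3.84 and Pdgfrb at 61.0 ± 4.48. Pdgfrb and Nrp1 (56.8 ± 5.21) overlapped. The order rests on the length used. Over the union of all annotated exons, Pdgfb fell to 32.4 CPM per kb in BMDMs, below Nrp1 (61.3) and Nrp2 (42.8), because its annotated coding transcripts have a median of 652 bases and its exons a union of 4161.

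**Figure D2:**
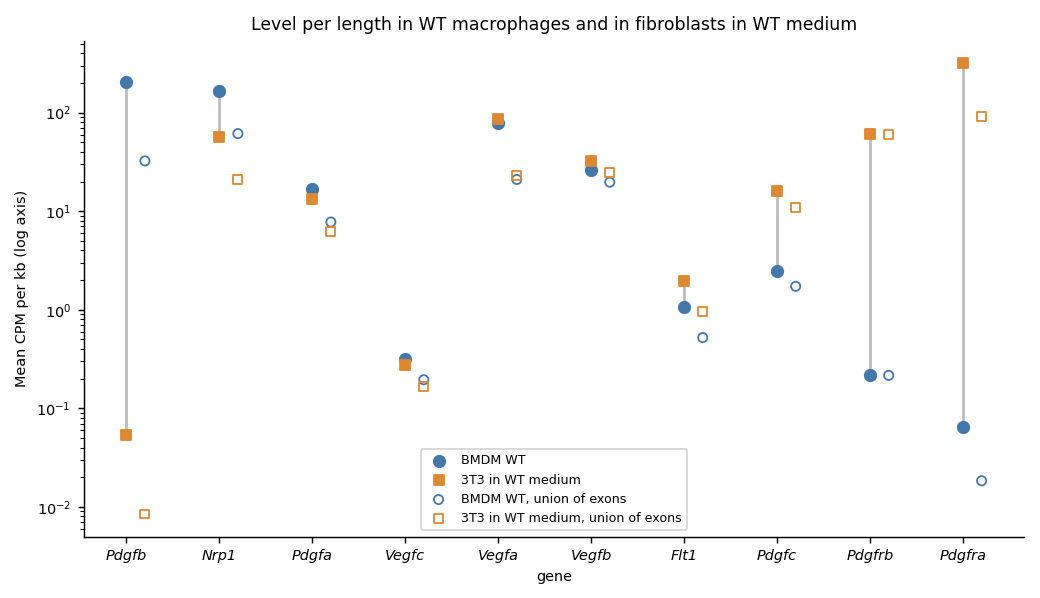
Mean CPM per kb on a log axis for the 10 genes in WT BMDMs (circles) and 3T3 in WT medium (squares), with genes ordered by the ratio of BMDM to 3T3. Filled symbols use the median coding transcript and open ones the union of exons, and Pdgfb and Pdgfra stand at the opposite ends.

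Across the 12 libraries, the genes whose log2 CPM ran closest to Pdgfb were Klhl6 and Kcnab2 (Pearson r = 0.9995 for both), and those closest to Pdgfrb were Lox (0.9996) and Pcolce (0.9993). The libraries of a cell type share this gap, so such values describe the difference between the cell types. Vegfa, which hardly differed between the cells, had no such close partner (Gm28530 at 0.9198 and Tlcd2 at 0.882).

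In macrophages, the PHD2cko label went with less Pdgfc and Flt1, and with levels of the other 8 members that did not pass the test. None of the 10 was higher and 2 were lower, against 3.38% and 3.35% of all genes tested. The median log2 fold change of the 10 was -0.01, and that of all genes tested 0. At an unadjusted p under 0.05, 2 members were higher, Pdgfa and Vegfc, but the share of all genes at that threshold was not computed. Limma-voom and DESeq2 also called 0 higher after adjustment. Pdgfc measured 9.35, 9.02 and 8.09 CPM in the WT libraries and 5.89, 6.28 and 6.04 CPM in those labelled PHD2cko, and no PHD2cko library reached the lowest WT one. It fell by 0.54 ± 0.0825 (SE) on the log2 scale, with adjusted p = 0.00146 by edgeR. Flt1 measured 7.73, 6.72 and 6.69 CPM in WT and 5.40, 4.92 and 3.88 CPM in PHD2cko, again without overlap. It fell by 0.58 ± 0.129 (adjusted p = 0.0162 by edgeR), a call that was lost without BMDM WT replicate 1 (adjusted p = 0.0815) or BMDM PHD2cko replicate 3 (adjusted p = 0.0689). Kdr had the largest of these 3 called changes. It went from 17.5, 17.5 and 17.4 CPM to 8.98, 8.54 and 8.40 CPM and was 2.02-fold lower (adjusted p = 0.00656 by edgeR). Summed markers of some other cell types fell beside these VEGF receptors, though not every marker did. The 8 endothelial markers, none of which is on the lists of members or family genes, summed to 263 to 266 per 1e6 total counts in WT and 204 to 206 in PHD2cko. Nearly all of this was Vwf, at 293, 293 and 293 CPM and then 221, 224 and 227 CPM (log2 fold change -0.39, adjusted p = 0.101 by edgeR). By mean CPM, Egfl7 (0.334 and then 0.562), Tie1, Tek, Esam and Cdh5 went the other way at low counts. Emcn was at 0 in both groups and Cldn5 in PHD2cko, and 7 and 6 of the 8 had counts, with 2 tested and 0 called. The 7 B and plasma cell markers summed to 196 to 202 in WT and 160 to 174 in PHD2cko, with 5 and 6 of the 7 above 0, Pax5 at 0 in both groups and Igkc at 0 in WT. Of 4 tested, Igkc was higher (0 counts in WT, 12 to 18 in PHD2cko) and Ighm lower (214 to 223 CPM and then 169 to 189 CPM). Cd79b was also higher by value, with 26, 35 and 41 counts in WT and 60, 51 and 64 in PHD2cko. The part of the endothelial, B and plasma cell markers in the result was not tested.

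Vegfa, Vegfb and Pdgfb did not pass the test in macrophages. Vegfa measured 82.7, 94.1 and 88.5 CPM in the libraries labelled PHD2cko, within and around the range in WT. Its log2 fold change was -0.03, with a 95% interval of -0.15 to 0.09. Of 19 other HIF targets in the same libraries, 12 were higher and 0 lower, with a median log2 fold change of 0.27. Ankrd37 rose from 0.363 to 0.454 CPM in WT to 6.35 to 7.28 CPM, a log2 fold change of 4.01, Egln3 rose 3.88-fold and the glycolytic regulator Pdk1 1.94-fold. The log2 fold change was 0.03 (interval -0.17 to 0.23) for Vegfb and 0.01 (interval -0.14 to 0.16) for Pdgfb. Figf, which encodes VEGF-D, had 6, 6 and 9 counts in WT and 5, 2 and 2 in PHD2cko. Its ratio was 0.413 (exact 95% counting interval 0.167 to 0.941), and the log2 fold change of -1.24 (interval -2.15 to -0.34) was not called (adjusted p = 0.153 by edgeR). Pdgfa was at 30.4, 28.2 and 29.1 CPM in PHD2cko, above every WT library, with a log2 fold change of 0.27 and an adjusted p of 0.198 by edgeR. Fitted on the 6 BMDM libraries alone it passed the threshold (adjusted p = 0.00256), in a fit that called 9.79% of all genes higher and 10.8% lower. The ratio of Pdgfa to Pdgfc, each per kb, was 6.36, 6.26 and 7.45 in WT and 12.5, 10.9 and 11.7 in PHD2cko (exact permutation p = 0.1, the smallest that 3 against 3 can give).

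Vegfc had 8, 5 and 10 counts in WT and 9, 15 and 20 in PHD2cko, a ratio of 1.84 (exact 95% counting interval 1.09 to 3.20) with overlapping libraries. Nrp1 was at 630, 636 and 623 CPM in PHD2cko and Nrp2 at 517, 503 and 543 CPM, with log2 fold changes of 0.07 (interval -0.06 to 0.21) and 0.04 (interval -0.12 to 0.20). Pdgfra, with 1 to 5 counts in each of the 6 libraries, was near the level of 3 counts. Nrp1 and Vegfc lie on chromosome 8, as does Egln1.

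On 4 further lists of the pathway the share of called genes is to be read against the same 3.38% and 3.35% of all genes tested, and with the HIF targets 27 listed genes were called. Of 11 tested genes that activate or bind the ligands, 1 was higher and 2 lower, with Thbs1, thrombospondin 1, falling from 22.8 to 25.6 CPM to 9.47 to 10.3 CPM. The proprotein convertase Furin fell by 0.18 on the log2 scale, and the PDGF-binding Sparc, with 2 to 10 counts in a WT library, had 12 to 22 in PHD2cko. Of 11 semaphorin and plexin genes, the neuropilin ligand Sema3c (20 to 24 counts in PHD2cko, 46 to 64 in WT) and its receptor Plxnd1 (fell by 0.27) were lower and 0 higher. Of 21 adaptors and phosphatases, Plcg1 and Rasa1 were higher and Ptpn12 and Gab1 lower, by 1.13-fold to 1.24-fold. Of 23 genes of the immediate response to growth factors, 6 were higher and 0 lower, with a median log2 fold change of 0.41. Myc rose 2.00-fold, Etv5 1.79-fold and Fos 1.57-fold. The smaller counts moved without 1 library as well. The 2 lower genes that activate or bind the ligands were 1 in every such fit but that without BMDM WT replicate 2, and the 1 higher was 0 without BMDM WT replicate 1 or 3 or BMDM PHD2cko replicate 1. The 2 lower semaphorin and plexin genes were 1 in each of the 6 fits. Of the adaptors and phosphatases 0 were higher in 5 fits and 1 without BMDM PHD2cko replicate 3, and 1 was lower without BMDM WT replicate 1 or 3 or BMDM PHD2cko replicate 1. The 6 response genes were 2 without BMDM WT replicate 1 or 3, 3 without BMDM PHD2cko replicate 1, and 4 or 5 without another library. Of the genes named here, Thbs1, Ptpn12, Etv5 and Fos kept their calls in all 6 fits without 1 library, Sema3c in 5, Gab1 in 3, Sparc and Myc in 2, Furin, Plcg1 and Plxnd1 in 1 and Rasa1 in 0.

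**Figure D3:**
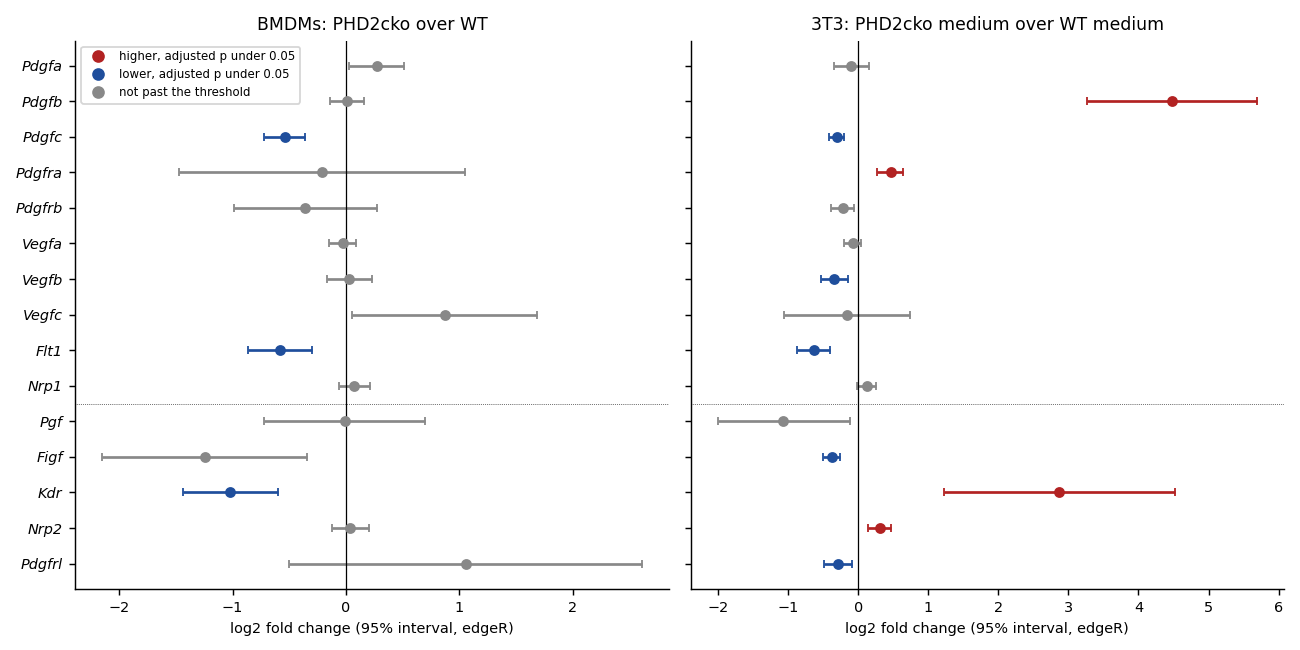
Log2 fold change with its 95% interval by edgeR for the 10 genes (above the dotted line) and 5 family genes (below), in BMDMs labelled PHD2cko over WT (left) and in 3T3 in PHD2cko medium over WT medium (right), with different scales on the horizontal axes. Flt1 and Pdgfc are lower on both sides, and Pdgfb (4.48) and Kdr (2.87) lie far to the right in 3T3 with long intervals.

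In fibroblasts, the medium labelled PHD2cko went with more Pdgfra and less Flt1, Pdgfc and Vegfb. With Pdgfb, 2 of the 10 members were higher and 3 lower, against 8.93% and 6.75% of all genes tested. The median log2 fold change of the 10 was -0.13, and that of all genes tested 0. Macrophage RNA differed between these libraries. Of 23 macrophage markers 21 were higher in PHD2cko medium, none of the 23 was at 0 in either group, and their summed level was 111 to 124 CPM in WT medium and 302 to 1090 CPM in PHD2cko medium. Set against the sum in BMDMs, this was 0.254%, 0.229% and 0.231% of the library in WT medium and 2.49%, 0.687% and 2.23% in PHD2cko medium (exact permutation p = 0.1, the smallest that 3 against 3 can give). Lgmn alone made up 78.1% to 81.3% of the marker counts in WT medium, and without it the shares were 0.0489% to 0.0521% and 0.516% to 2.32%. In bulk RNA, more cells of a type and more RNA per cell cannot be told apart.

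Pdgfra measured 805, 937 and 996 CPM in WT medium and 1230, 1270 and 1250 CPM in PHD2cko medium, with no overlap. It rose 1.37-fold (log2 fold change 0.46 ± 0.0838 SE, adjusted p = 0.00292 by edgeR). Without replicate 1 of WT medium, which had the lowest value, the log2 fold change was 0.39 (adjusted p = 0.000491). BMDMs hold so little Pdgfra that the macrophage share times their level came to at most 0.0612 counts in a library, against 15817 to 25903 counted. Pdgfrb went the other way by value, at 303, 338 and 349 CPM and then 282, 288 and 277 CPM, each below every library in WT medium. Its log2 fold change of -0.22 (interval -0.39 to -0.06) had an adjusted p of 0.0667 by edgeR. The adjusted p was under the threshold in limma-voom (0.0248), in DESeq2 (0.0151) and without replicate 1 of WT medium (0.00155). Within each library, the ratio of Pdgfra to Pdgfrb, each per kb, was 5.01, 5.21 and 5.37 in WT medium and 8.22, 8.29 and 8.52 in PHD2cko medium. The ratio does not depend on library size. Its groups had SDs of 0.184 and 0.154, and the exact permutation test gave p = 0.1, the smallest it can give here.

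**Figure D4:**
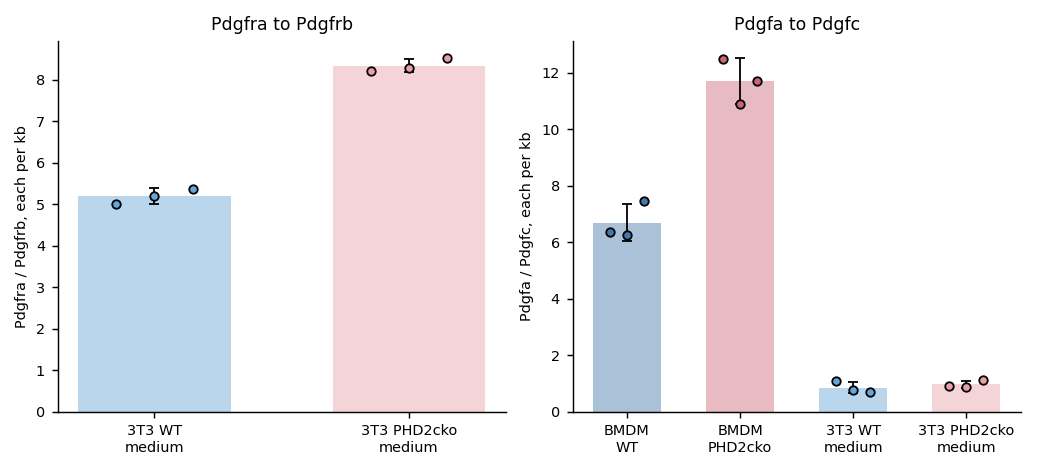
Ratio of Pdgfra to Pdgfrb in 3T3 (left) and of Pdgfa to Pdgfc in all groups (right), each gene per kb of its median coding transcript, with points for libraries, bars for means, error bars for SD and axes from 0. The Pdgfra to Pdgfrb ratio is 5.01 to 5.37 in WT medium and 8.22 to 8.52 in PHD2cko medium.

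Flt1 measured 11.9, 13.8 and 13.5 CPM in WT medium and 8.84, 8.33 and 8.14 CPM in PHD2cko medium. It fell by 0.63 ± 0.107 (SE) on the log2 scale (adjusted p = 0.00174 by edgeR), and each of the 6 fits without 1 library kept the call. Pdgfc measured 53.8, 56.0 and 57.9 CPM and then 46.1, 46.1 and 43.2 CPM, and fell by 0.31 ± 0.0519 (adjusted p = 0.00161 by edgeR). For both genes the macrophage share times the BMDM level was at most 1.08% of what was counted. Vegfb measured 45.8, 36.1 and 36.4 CPM in WT medium, where replicate 1 stood high, and 33.0, 28.8 and 31.2 CPM in PHD2cko medium. It fell by 0.34 ± 0.0873 (adjusted p = 0.0194 by edgeR), and by 0.20 without replicate 1 of WT medium (adjusted p = 0.0355). The call was lost without PHD2cko medium replicate 2 or 3 (adjusted p = 0.0638 and 0.0631) and in a fit of the 6 fibroblast libraries alone (0.112). Figf fell by 0.38 (207, 210 and 221 CPM to 158, 173 and 158 CPM, adjusted p = 0.000627 by edgeR), and Pdgfrl by 0.29 with an adjusted p of 0.0472 that was over the threshold in each of the 6 fits without 1 library (0.0537 to 0.169) and in the fit of the 6 fibroblast libraries (0.0635).

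Pdgfb had 0, 0 and 2 counts in WT medium and 17, 9 and 21 in PHD2cko medium. The ratio was 27.1 with an exact counting interval of 7.09 to 230.2, and the fitted log2 fold change of 4.48 had adjusted p = 0.000265 by edgeR. In these libraries the macrophage share times the level of Pdgfb in BMDMs came to 53.3, 13.2 and 51.0 counts, more than was counted in each. In WT medium the share came to 5.64, 7.02 and 4.87 counts, also more than was counted. Subtraction set negative values to 0 and so left 0 counts in every 3T3 library. The log2 fold change of 0 after it was fixed in advance and is no measured change. Kdr had 0, 2 and 2 counts in WT medium and 16, 1 and 11 in PHD2cko medium, a ratio of 8.07 (exact interval 2.82 to 31.7) with overlapping libraries. The share times its level in BMDMs made up 21.2%, 83.9% and 29.5% of those counts in PHD2cko medium. The fitted log2 fold change of 2.87 (adjusted p = 0.0226 by edgeR) was lost in 3 of the 6 fits without 1 library, with limma-voom (2.39, adjusted p = 0.0814) and with the macrophage share from 22 markers subtracted (2.50, adjusted p = 0.0735), and it held with the share from 23 markers subtracted (3.36, adjusted p = 0.0343). Markers of other cell types moved beside Kdr here too. The 8 endothelial markers summed to 8.78 to 9.92 per 1e6 total counts in WT medium and 10.1 to 14.0 in PHD2cko medium, with 7 of 8 above 0 and Cldn5 at 0 in both. Of 2 tested, Vwf was higher (21, 63 and 36 counts, then 119, 44 and 114, adjusted p = 0.00523 by edgeR) and Egfl7 was not called. BMDMs hold Vwf as well, at 221 to 227 CPM in PHD2cko, against 1.07 to 2.29 CPM in 3T3 in WT medium. In PHD2cko medium Vwf was at 6.11, 2.55 and 5.52 CPM in 3T3, where the macrophage share was 2.49%, 0.687% and 2.23%. The endothelial cadherin Cdh5 had 0, 3 and 2 counts and then 7, 10 and 4 and was not tested. The 7 B and plasma cell markers summed to 4.06 to 5.53 and then 12.5 to 14.5, with 5 of 7 above 0 and Igkc and Pax5 at 0 in both media, and of 4 tested Ighm was higher. The part of these markers in the result was not tested.

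**Figure D5:**
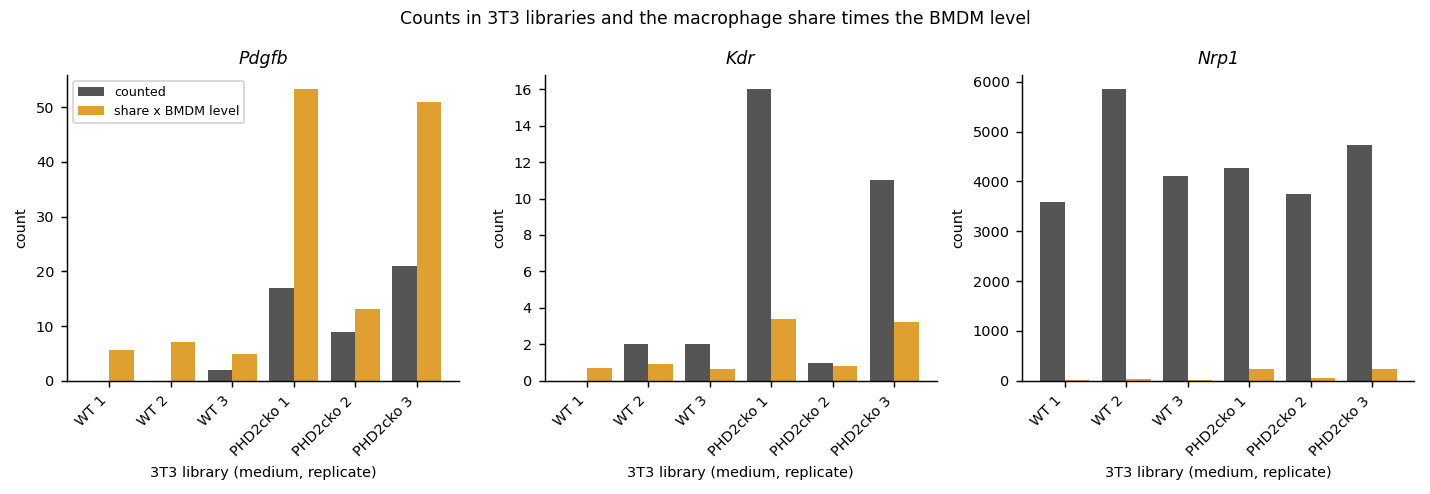
Counts of Pdgfb, Kdr and Nrp1 in each 3T3 library (dark bars) and the count given by the macrophage share of that library times the level in BMDMs with the same label (light bars), on linear axes from 0. For Pdgfb the light bar is above the dark one in every library, for Kdr it is below it wherever there are more than 0 counts, and for Nrp1 it is at most 247 of 3594 to 5852 counts.

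Vegfa measured 97.3, 93.1 and 90.4 CPM in PHD2cko medium, overlapping WT medium, with a log2 fold change of -0.08 (interval -0.20 to 0.04). Pdgfa was at 17.5, 16.7 and 19.9 CPM with a log2 fold change of -0.10 (interval -0.35 to 0.15). Its value turned to 0.09 without replicate 1 of WT medium, and neither was past the threshold. Nrp1 measured 219, 217 and 229 CPM, and its log2 fold change of 0.12 (interval -0.02 to 0.25) did not pass the test. Nrp2 rose from 117, 140 and 139 CPM to 171, 148 and 170 CPM, by 0.31 on the log2 scale (adjusted p = 0.0185 by edgeR), a call lost without PHD2cko medium replicate 1 (adjusted p = 0.0782) or 3 (0.0824) and in the fit of the 6 fibroblast libraries alone (0.0889). The macrophage share times the BMDM level was at most 6.13% of the Nrp2 counts, and with the share from 23 or 22 markers subtracted the call held (0.28, adjusted p = 0.0230 and 0.0239). Vegfc had 5 to 12 counts and Pgf 3 to 22 counts in a library, and neither passed the test.

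In fibroblasts 22 genes of these 5 lists were called, to be read against 8.93% higher and 6.75% lower among all genes tested, and 8 in the fit of the 6 fibroblast libraries alone, which called 4.23% higher and 2.59% lower. Of 11 genes that activate or bind the ligands, 0 were higher and 1 lower, with Thbs1 falling 1.62-fold from 1230, 1590 and 1630 CPM. Among 11 semaphorin and plexin genes Sema3c rose 1.36-fold and Sema3b fell by 0.68 on the log2 scale. Of 21 adaptors and phosphatases, Ptpn1 and Rasa1 were higher by 1.16-fold and 1.14-fold, and 0 lower. Ptpn1 is at 373 to 379 CPM in BMDMs and 41.2 to 45.1 CPM in 3T3 in WT medium, and with the macrophage share subtracted its log2 fold change went from 0.21 to 0.10 and was not called (adjusted p = 0.207 by edgeR, 0.237 with 22 markers). Among 23 response genes 8 were higher and 2 lower, with a median log2 fold change of 0.15. The MAP kinase phosphatase Dusp6 rose 1.55-fold, its relative Dusp4 1.89-fold and Fos 1.80-fold, while Spry1 fell by 0.25 and Ier3 by 0.32. Like Spry1, Spry2 and Spred1 encode inhibitors of this signalling, and these, named after their values were seen, were higher (0.33 and 0.18, adjusted p = 0.0304 and 0.0209 by edgeR). Of the 19 HIF targets, 5 were higher, among them Pfkfb3, Pdk1 and Pgk1 by at most 1.35-fold, and Ddit4 and Hk2 were lower. Without WT medium replicate 1, 3 of the genes that activate or bind the ligands were lower and 1 higher, 2 semaphorin and plexin genes were higher and 2 lower, and 1 adaptor or phosphatase was lower. Without WT medium replicate 3, 1 ligand-binding or activating gene and 3 semaphorin and plexin genes were higher. Higher semaphorin and plexin genes were 0 without WT medium replicate 2 or PHD2cko medium replicate 2, and higher adaptors and phosphatases 1 without PHD2cko medium replicate 1 or 3. The 8 response genes were 3 without PHD2cko medium replicate 3, 4 without WT medium replicate 2 or PHD2cko medium replicate 1 and 5 without PHD2cko medium replicate 2, and each fit without 1 library left 0 or 1 response genes lower. The 5 HIF targets were 9 without WT medium replicate 1 and 3 without WT medium replicate 2, and 1 was lower without PHD2cko medium replicate 2 or 3. Thbs1, Sema3b, Ptpn1, Dusp6, Pdk1, Pgk1 and Hk2 kept their calls in all 6 such fits, Sema3c, Rasa1, Dusp4, Fos, Pfkfb3 and Ddit4 in 4, Spry1 in 3 and Ier3 in 1. In the fit of the 6 fibroblast libraries alone, 4 response genes and 1 HIF target were higher and 0 of either lower. Thbs1, Sema3b, Ptpn1, Dusp6 and Pdk1 kept their calls there, and Sema3c, Rasa1, Dusp4, Fos, Spry1, Ier3, Pfkfb3, Pgk1, Ddit4 and Hk2 lost theirs (adjusted p = 0.0503 for Pgk1 to 0.167 for Ier3). With the macrophage share subtracted, from 23 or 22 markers, Pfkfb3 (0.37, adjusted p = 0.0504, and 0.35, adjusted p = 0.0578), Spry1 (adjusted p = 0.0557 and 0.0533) and Ier3 (0.0555 and 0.0509) were no longer called.

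The change with the label was tested for a difference between the cell types. For 1 of the 10 members, Pdgfb, the log2 change in 3T3 was higher than in BMDMs, and for 0 it was lower, against 7.71% and 4.58% of all genes tested. At an unadjusted p under 0.05, 2 members were lower, Pdgfa and Vegfb, and Pdgfc was higher like Pdgfb. The share of all genes at that threshold was not computed. Kdr was also called higher. For Flt1 the difference was -0.05 (95% interval -0.42 to 0.31) and for Pdgfc 0.23 (interval 0.02 to 0.44, adjusted p = 0.186 by edgeR). After adjustment, the falls of Flt1 and Pdgfc in the cell types were thus not shown to differ. Vegfb had a difference of -0.37 (adjusted p = 0.0809 by edgeR) and Nrp2 of 0.27 (adjusted p = 0.142 by edgeR). For Pdgfra the interval, -0.64 to 1.98, was wide because BMDMs hardly hold it.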

How the data were processed

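PolyA RNA of 12 libraries had been sequenced with single reads. The authors ran Kallisto on the mouse genome GRCm38 and deposited estimated counts summed to genes, as whole numbers with no normalization. All columns were mapped to labels. A further genotype item that all groups share is not reported here. Such counts assign shared reads by a model, which can split near-identical sequences. Low counts were filtered with filterByExpr over 4 groups, libraries were scaled by TMM, and all 12 were fitted with the quasi-likelihood test of edgeR 4.0.16 in R 4.3.3, two-sided, with Benjamini-Hochberg adjustment over 14285 genes and a threshold of 0.05. The study used limma-voom, which was run as an alternative with limma 3.58.1, as was DESeq2 1.42.0. Scripts were tested on simulated data, where changes by a log2 fold of 1 were recovered at 89% in macrophages, 89% in fibroblasts and 81% between cell types. Of the calls, 9.62%, 6.12% and 3.78% were false, so the shares for macrophages and fibroblasts were above the threshold of 0.05. CPM are counts over the TMM effective size, but macrophage shares use total counts (23 markers). Lengths and positions come from GENCODE vM21. Intervals of counts and ratios are exact at 95% and cover counting error only. Members and gene lists were chosen with earlier results of these data known. All 10 members and 7 family genes were named, with up to 3 called genes of each other list by size of change, and for Pdgfb, Pdgfrb and Vegfa the 2 genes of highest r.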

Additional observations from a re-analysis of the deposited data

Results flagged for a closer look

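Among the 10 members and their families, the change with the PHD2cko label differed between 3T3 and BMDMs for Pdgfb and Kdr, by a test of the difference itself in edgeR. For Pdgfb the log2 change in 3T3 was higher by 4.47 than in BMDMs (95% interval 3.24 to 5.69, adjusted p = 0.000368 by edgeR). It rests on 2 counts in 3T3 in WT medium and 47 in PHD2cko medium, and the macrophage share was above the count in every 3T3 library. Subtraction left no Pdgfb counts there, so the difference of -0.01 after it was fixed in advance and is no measured change. For Kdr the log2 change in 3T3 was higher by 3.89 than in BMDMs (interval 2.23 to 5.55, adjusted p = 0.00496 by edgeR), from a fall in BMDMs by 1.02 and a fitted rise in 3T3 by 2.87 that rests on 4 and 28 counts. With the share from 23 or 22 markers subtracted, the difference was 4.38 or 3.52 (adjusted p = 0.0105 and 0.0215 by edgeR). The rise in 3T3 alone kept its call in 3 of the 6 fits without 1 library, and lost it with limma-voom (adjusted p = 0.0814) and with the 22-marker share subtracted (0.0735 by edgeR).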

How the results depend on the processing

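With at least 10 counts required in every library, which leaves Pdgfb and Pdgfra untested, 0 members were higher in fibroblasts and 0 in the difference between cell types. With the macrophage share subtracted these counts were 1 and 0, and likewise with the share from 22 markers without Lgmn, an alternative chosen after seeing the data, whose mean in WT medium was 0.0509% instead of 0.238%. Pdgfb then had log2 values of 0 in fibroblasts and -0.01 in the difference, or -1.69 (adjusted p = 0.491 by edgeR) and -1.70 (adjusted p = 0.533 by edgeR) with 22 markers. Subtraction with 23 or 22 markers also ended the calls of Vegfa between cell types (adjusted p = 0.0936 and 0.0530) and of Pdgfrl in fibroblasts (0.0889 and 0.0848), and with 22 markers that of Kdr in fibroblasts (0.0735). Subtraction leaves Pdgfb at or near 0 counts, so its values are no measured changes. On the 6 libraries of a comparison alone, 1 member (Pdgfa) was higher in macrophages, and called genes of the surrounding lists numbered 42 instead of 27 in macrophages and 8 instead of 22 in fibroblasts. Calls among all genes moved the same way, to 9.79% higher and 10.8% lower in macrophages and to 4.23% and 2.59% in fibroblasts, where the calls of Vegfb (adjusted p = 0.112), Nrp2 (0.0889) and Pdgfrl (0.0635) were lost.

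Same-numbered libraries did not deviate together (correlations of deviations from -0.118 to 0.0433), so no pairing by number was seen. Such correlations, over all genes tested, cannot exclude that libraries were prepared in matched sets. In a fit that adds the number as a block, 1 member (Vegfb, adjusted p = 0.0472 by edgeR) had a lower change in fibroblasts than in macrophages, where 0 had one without it. The block ended the calls of Vegfa between cell types (adjusted p = 0.0502) and of Pdgfrl in fibroblasts (0.0534) and changed no other call of a member or family gene.

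Without 1 library at a time, members lower in macrophages numbered 1 to 2, and genes of the surrounding lists 16 to 22 in macrophages (lowest without BMDM WT replicate 1 or 3) and 12 to 33 in fibroblasts (lowest without PHD2cko medium replicate 3, highest without WT medium replicate 1). Values of members and of the family gene Pgf that were not called changed sign or came to 0 after rounding in some of these fits. In macrophages their ranges were 0 to 0.02 for Pdgfb, -0.62 to 0.33 for Pdgfra, -0.07 to 0.02 for Vegfa, -0.01 to 0.06 for Vegfb and -0.18 to 0.29 for Pgf, which was also at 0.02 with limma-voom and 0.01 with the block. In fibroblasts they were -0.18 to 0.09 for Pdgfa and -0.37 to 0.21 for Vegfc, between cell types 0 to 0.55 for Vegfc, and in the difference -0.05 to 0.42 for Pdgfrb, -0.19 to 0.06 for Flt1 and 0 to 0.09 for Nrp1. Calls of Pdgfc in both cell types, of Flt1 and Pdgfra in fibroblasts and of Pdgfb and Kdr in the difference held in every fit without 1 library. The median log2 change of all genes moved by under 0.1 with each scaling. Depth limits Vegfc, Pgf, Pdgfd and Flt4, with 0 to 32 counts in a library.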
